A study of Rattus norvegicus with 15 samples.

Results

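The nuclear genes of oxidative phosphorylation, taken complex by complex, were followed in 2 tissues, mesenteric artery and kidney cortex, of SS rats (Dahl salt-sensitive) with and without a deleted noncoding region. Members were the rows with a gene identifier, outside the mitochondrial chromosome, whose symbol begins with the names of subunits of complexes I to V (Nduf, Sdh, Uqc, Cox4 to Cox8 and Atp5), with no hyphen in the name. This gave 98 of 34357 rows, of which 41 belong to complex I, 4 to complex II, 14 to complex III, 21 to complex IV and 18 to complex V. Ndufa4 and Ndufa4l2, named for complex I, were placed with complex IV, where the Ndufa4 protein is found. Cox7b2, Cox8c and Ndufb4l1 were listed at 0 in all libraries, and 5 rows (Ndufs6, Ndufa10l1, Ndufb11b, Ndufb4l1 and Cox7a2l2) are low copies or relatives of another member, whose reads may be shared with it.

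Total RNA of 15 libraries was sequenced. The libraries were 4 wild-type and 4 deletion mesenteric arteries and 3 wild-type and 4 deletion kidney cortices, all titled male, from this strain, an inbred model of salt-sensitive hypertension. The deletion took out 30.4 kb on chromosome 2 of the rn7 build (positions 60825801 to 60856216), the rat counterpart of a human haplotype block around rs1173771, and the question put to the RNA was which genes respond to its loss. Age, diet and the number of founder lines were not given, and no label ties a library to its own animal, so errors and p-values measure the spread between these libraries.

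The complexes of the respiratory chain pass electrons from NADH (complex I) or succinate (complex II) through complex III to oxygen at complex IV and pump protons across the inner mitochondrial membrane, except complex II. Complex V, the ATP synthase, lets the protons back and makes ATP. A few subunits are made by mitochondrial DNA and all others by nuclear genes, some of which come in tissue isoforms. The kidney cortex is rich in proximal tubule cells, which depend on mitochondrial ATP for salt reabsorption, while the artery wall holds smooth muscle, with fat around it.

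Many of these nuclear genes are known to carry sites for the factors NRF1 and GABPA close to their start, so the upstream sequences of 6 members are shown: complex I, III and V members with such letters, the ubiquitous and the muscle form of Cox7a, and the c-ring gene with the largest tissue difference. Each line gives the 250 bases before the start on the GRCr8 build of RefSeq, with matches to GCGCANGCG (NRF1) or CCGGAAG (GABPA) on either strand in capitals.

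Ndufa6: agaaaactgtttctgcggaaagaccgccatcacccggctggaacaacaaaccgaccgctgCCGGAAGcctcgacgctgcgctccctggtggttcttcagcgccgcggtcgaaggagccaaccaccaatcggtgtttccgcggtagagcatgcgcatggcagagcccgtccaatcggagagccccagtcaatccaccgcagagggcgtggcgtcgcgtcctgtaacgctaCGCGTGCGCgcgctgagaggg
Uqcrc1: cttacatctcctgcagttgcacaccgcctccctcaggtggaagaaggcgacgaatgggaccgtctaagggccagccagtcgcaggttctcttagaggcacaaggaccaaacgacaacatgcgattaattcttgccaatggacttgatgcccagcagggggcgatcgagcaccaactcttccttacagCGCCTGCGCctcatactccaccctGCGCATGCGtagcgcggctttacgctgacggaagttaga
Atp5me: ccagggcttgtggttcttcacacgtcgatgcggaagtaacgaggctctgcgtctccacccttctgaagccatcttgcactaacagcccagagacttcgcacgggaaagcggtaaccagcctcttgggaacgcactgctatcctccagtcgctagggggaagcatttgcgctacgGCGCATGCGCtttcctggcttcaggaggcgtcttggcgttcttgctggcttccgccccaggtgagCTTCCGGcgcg
Cox7a2: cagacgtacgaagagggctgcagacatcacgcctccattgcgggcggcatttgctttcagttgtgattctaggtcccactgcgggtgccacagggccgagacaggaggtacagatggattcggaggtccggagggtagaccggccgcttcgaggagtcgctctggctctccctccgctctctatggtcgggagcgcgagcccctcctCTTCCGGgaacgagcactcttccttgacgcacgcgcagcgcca
Cox7a1: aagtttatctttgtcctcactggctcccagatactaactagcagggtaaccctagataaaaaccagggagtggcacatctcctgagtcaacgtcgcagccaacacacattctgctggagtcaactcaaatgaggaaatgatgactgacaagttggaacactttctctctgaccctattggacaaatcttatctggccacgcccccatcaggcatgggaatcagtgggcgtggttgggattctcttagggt
Atp5mc1: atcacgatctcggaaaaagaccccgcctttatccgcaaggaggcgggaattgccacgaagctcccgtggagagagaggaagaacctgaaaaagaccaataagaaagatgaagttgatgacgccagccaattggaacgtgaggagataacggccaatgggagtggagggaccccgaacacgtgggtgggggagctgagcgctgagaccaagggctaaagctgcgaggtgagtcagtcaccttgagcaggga

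The windows lie at chr7:115750318-115750567 (minus strand) for Ndufa6, chr8:118467973-118468222 (plus strand) for Uqcrc1, chr14:1464610-1464859 (plus strand) for Atp5me, chr8:89601150-89601399 (minus strand) for Cox7a2, chr1:94568966-94569215 (plus strand) for Cox7a1 and chr10:81523346-81523595 (minus strand) for Atp5mc1. The promoter of Ndufa6, an accessory subunit of complex I, held 1 match of each kind. In Uqcrc1, a core protein of complex III, 2 NRF1 matches stood apart from each other. In Atp5me, a small subunit of the membrane part of complex V, the 2 NRF1 matches overlap within 1 run that reads the same on both strands, and a GABPA match lies near the start. Cox7a2, the ubiquitous form, held 1 GABPA match, whereas Cox7a1, its heart and skeletal muscle form, and Atp5mc1 held none of these letters in the window.

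RefSeq promoters were found for 87 of the 98 members. Over the full window of 300 bases (250 before to 50 after the start), at least 1 NRF1 match was present in 26.4% of them, against 5.80% of all 33469 promoters and 10.6% of the 14298 promoters of genes tested here. The GABPA letters were present in 26.4%, against 8.75% and 14.5%. YY1 (AAGATGGCG) matched in 11.5%, against 1.73% and 2.99%. The estrogen-related receptor motif (TNAAGGTCA) matched in only 3 of the 87 promoters (3.45%, against 1.2% and 0.755%). Complex IV had NRF1 matches in 1 of 18 promoters (that of Cox7a2l), where complex V had them in 7 of 17 and complex III in 5 of 12. The promoters of complex IV include those of tissue isoforms such as Cox6a2, Cox7a1 and Cox8b but not those of Cox6a1 and Cox6c. The counts therefore do not compare like sets of genes. The members' median GC content was 56.3%, between that of all promoters (51.7%) and of tested genes (59.0%), and a match describes letters only. Members with any of these motifs had a median kidney-minus-artery log2 difference in wild-type of 1.74 (47 genes), and those without any had 1.83 (34 genes).

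Values are FPKM, fragments scaled by gene length and library size, so levels can be set side by side between genes. Differences are log2(FPKM + 0.5) differences with standard errors, tested with limma, and called at a Benjamini-Hochberg adjusted p under 0.05 over all genes tested, which were 16470 in artery, 15444 in kidney and 16856 over both. The filter, a mean of at least 0.5 FPKM over the libraries of a fit, passed 92 members in artery, 91 in kidney and 92 over both. Read counts were not used here and the depth is unknown.

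Smooth muscle (10 of 10), pericyte (9 of 9) and adipocyte (20 of 20) markers were called higher in artery, and proximal tubule (12 of 12) and thick limb and distal tubule (9 of 9) markers higher in kidney, in wild-type. The library labelled kidney wild-type 3 goes against its title: Xist stood at 81.1 FPKM, against at most 1.30 in the other 14 libraries, and the Y-linked Kdm5d, Uty and Eif2s3y were at 0. Kidney deletion 2 had the lowest summed proximal tubule marker level (5243 FPKM, others 7809 to 9067) and the highest share of the abundant noncoding RNA Rn7sl1 (22%, others 8.23% to 15.1%). Results of the members in kidney are therefore also given without these libraries, and the part of each in a result was not tested.

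The members summed to between 3113 and 4359 FPKM in an artery library and between 8034 and 16554 FPKM in a kidney library, or 0.824% to 1.37% and 1.88% to 3.60% of all FPKM. The median member stood at 24.9 FPKM in artery and 79.6 FPKM in kidney. The order of the members was close to the same in both tissues (Spearman rho 0.913 over 92 genes, which share libraries and gene models). In complex II, with 4 genes, and in complex I the rho was lower, at 0.8 and 0.801, and in complex III it was 0.978. In bulk tissue, fewer cells of a type and less RNA per cell cannot be told apart, and this holds for every tissue difference below.

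**Figure D1:**
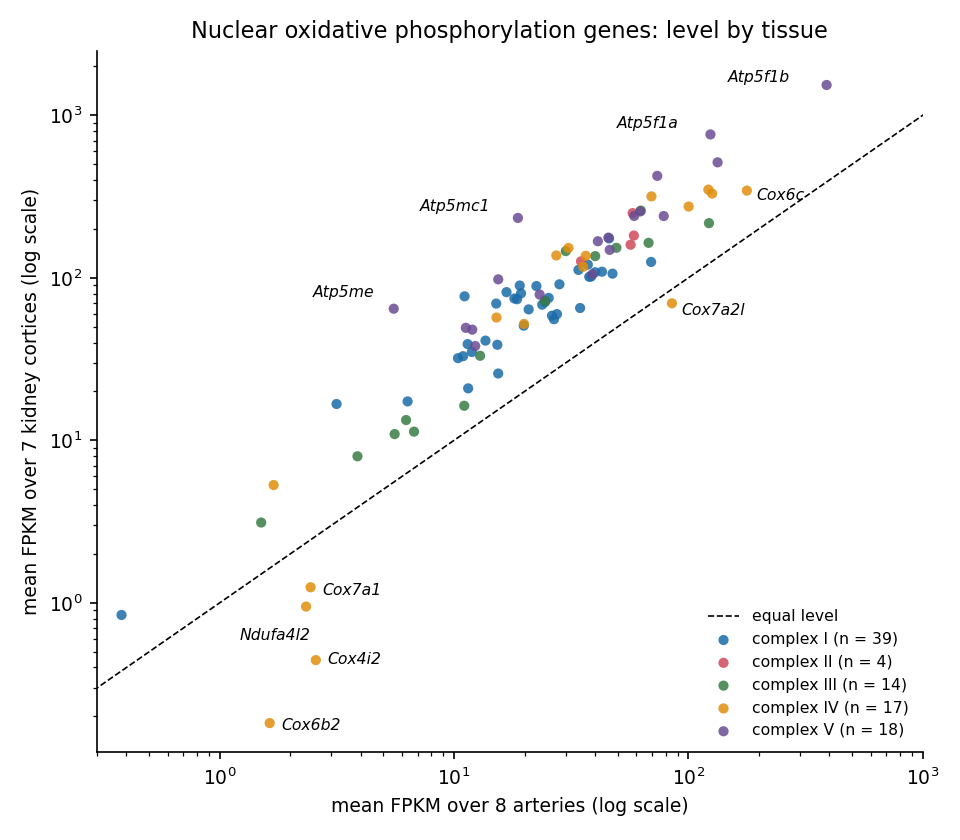
Mean FPKM of each of the 92 tested members in 8 artery libraries (horizontal, log axis) and 7 kidney libraries (vertical, log axis), coloured by complex, with a dashed line of equal level. Nearly all points lie above the line, and Atp5f1b is at the top right with 389 FPKM in artery and 1539 FPKM in kidney.

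The leading member of each complex was, in artery and kidney in turn, Ndufc2 (69.4 FPKM) and Ndufb9 (175 FPKM) in complex I, Sdha and Sdhc in complex II, Uqcrh (123 FPKM) and Uqcrfs1 (260 FPKM) in complex III, and Cox6c (178 FPKM) and Cox4i1 (349 FPKM) in complex IV. In complex V it was Atp5f1b, the catalytic beta subunit of the ATP synthase head, in both. Complex V took 32.8% ± 0.72 (SD, n = 8) of the members' summed FPKM in artery and 42.3% ± 0.95 (SD, n = 7) in kidney. The shares of complexes I, III and IV were smaller in kidney than in artery, at 22.3% against 25.6%, 10.2% against 12.2% and 19.2% against 23.6%. For complexes I, III, IV and V no kidney library's share reached into the range of the artery libraries, while the shares of complex II, 4.8% to 6.88% in kidney and 5.33% to 6.13% in artery, overlapped.

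In wild-type, 86 of the 92 tested members were called higher in kidney cortex and 4 higher in artery, where 31.9% and 36.9% of all genes tested were called in these directions. The members' median log2 difference was 1.75 (3.35-fold) and that of all genes -0.12. A log2 difference over 1 was reached by 80 of 92 members, against 18.4% of all genes. In the deletion libraries, which are independent of the wild-type ones, 86 were called higher in kidney and 5 higher in artery, beside 30.7% and 34.2% of all genes, with a median of 1.39 (2.61-fold) against -0.09. The 86 were the same genes in both genotypes. In the deletion libraries 80 were called higher after rescaling and 82 with quantile normalization, and 7 of the 86 lost the call in at least 1 alternative. Ndufb1 lost it in 7 (adjusted p = 0.0538 to 0.187), without artery deletion 1, 3 or 4 or kidney deletion 3 or 4 among them, and Uqcc5 in 5 (0.0517 to 0.164), without artery deletion 1 or 3 or kidney deletion 1 or 3 among them. Cox6c lost it in 4 (0.0536 to 0.0586), without artery deletion 4 or kidney deletion 4 among them, and Uqcrh in 3 (0.0607 to 0.651), without kidney deletion 4 among them. Uqcc1 (0.05, adjusted p = 0.682) and Uqcc4 (0.23, adjusted p = 0.0887) lost it after rescaling and Ndufc2 (0.19, adjusted p = 0.239) with quantile normalization. Without kidney wild-type 3, 84 were called higher and the same 4 lower in wild-type, with a median of 1.53. Without kidney deletion 2, 86 were called higher and 4 lower in deletion libraries, with a median of 1.49. Of all 98 members, 77 had every kidney library above every artery library and 4 had every kidney library below.

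**Figure D2:**
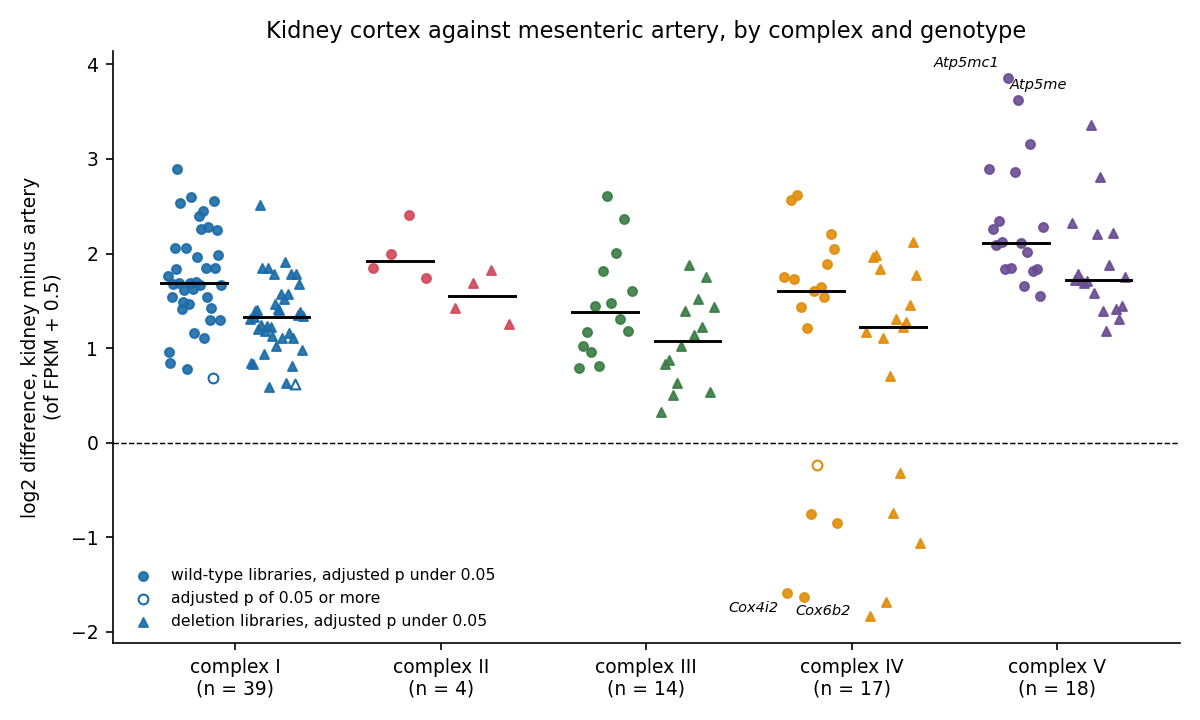
Kidney minus artery log2(FPKM + 0.5) difference of each tested member by complex, as circles for wild-type and triangles for deletion, with bars at the medians and open symbols where the adjusted p was 0.05 or more. Complex V has the highest wild-type median (2.11), complex III the lowest (1.38), and the points well below 0 are in complex IV.

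The size of the tissue difference changed with the scaling. With the FPKM values rescaled after removing haemoglobin, Rn7sl1 and mitochondrial rows, the wild-type median of all genes moved to -0.46 and the calls over all genes from 5370 higher and 6214 lower to 3766 and 8187. The members then had a median of 1.36, with 84 called higher and 5 lower. With median-of-ratios scaling the median of all genes was 0.04 and that of the members 1.93, with 86 and 4 called.

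In complex I, 38 of 39 tested members were called higher in wild-type kidney, with a median of 1.69 (3.22-fold). The 7 core subunits that carry the flavin and iron-sulphur clusters had a median of 1.85 and the 30 accessory subunits one of 1.68. Ndufv1, which binds the flavin and NADH, stood at 22.3, 22.4, 25.7 and 27.3 FPKM in wild-type artery and at 79.4, 92.2 and 127 FPKM in wild-type kidney, a log2 difference of 1.98 ± 0.18 (adjusted p = 1.18e-07). The largest difference was that of Ndufa3, an accessory subunit, at 2.89 ± 0.30. Its levels were 6.4 to 12.6 FPKM in wild-type artery and 45.5 to 127 FPKM in wild-type kidney. Ndufb1, another accessory subunit, was at the low end with 0.78 ± 0.24 (adjusted p = 0.00941), and its call was lost without kidney wild-type 3 (0.46, adjusted p = 0.0765) and after rescaling (0.40, adjusted p = 0.110). The low copy listed as Ndufs6 was the complex I row not called, at a mean of 0.381 FPKM in artery and 0.842 FPKM in kidney.

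All 4 subunits of complex II, the succinate dehydrogenase that also serves the citric acid cycle, were called higher in kidney, with a median of 1.92 (3.79-fold). Sdhc, one of the membrane anchors, was at 45.2, 47.6, 50.7 and 53.3 FPKM in wild-type artery and 257, 298 and 237 FPKM in wild-type kidney. Its difference of 2.41 ± 0.18 was the largest of the 4, and that of Sdhd, the other anchor, was the smallest at 1.74 ± 0.15. The flavoprotein Sdha differed by 1.84 ± 0.17 and the iron-sulphur protein Sdhb by 2.0 ± 0.17. No wild-type kidney library of any of the 4 reached down to the arteries.

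In complex III the symbols cover the subunits (Uqcr) and assembly factors (Uqcc), and all 14 were called higher in kidney. The 8 subunits had a median of 1.71 and the 6 assembly factors one of 0.99. Uqcrfs1, the Rieske iron-sulphur protein, was at 46.8, 46.0, 68.7 and 68.2 FPKM in wild-type artery and 237, 331 and 320 FPKM in wild-type kidney, a difference of 2.37 ± 0.26. Uqcr11, a small subunit, differed by 2.61 ± 0.27, the largest of the complex. Uqcrh, the hinge protein, was the leading member in artery, and its deletion artery 2 (176 FPKM) overlapped the kidney range of 155 to 256 FPKM. Among the assembly factors Uqcc1 differed by 0.79 ± 0.09 and Uqcc6 by 0.81 ± 0.33 (adjusted p = 0.0404). The call of Uqcc6 was lost in 8 alternatives, leaving out kidney wild-type 1 (adjusted p = 0.122), kidney wild-type 3 (0.114), artery wild-type 4 (0.130) or kidney deletion 4 (0.0501) among them, with adjusted p-values between 0.0501 and 0.192.

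Complex IV held the members that went against the rest. The 11 common subunits had a median of 1.75, while the 4 tested tissue isoforms had one of -1.22, and 12 of the complex's 17 tested members were called higher in kidney and 4 lower.

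**Figure D3:**
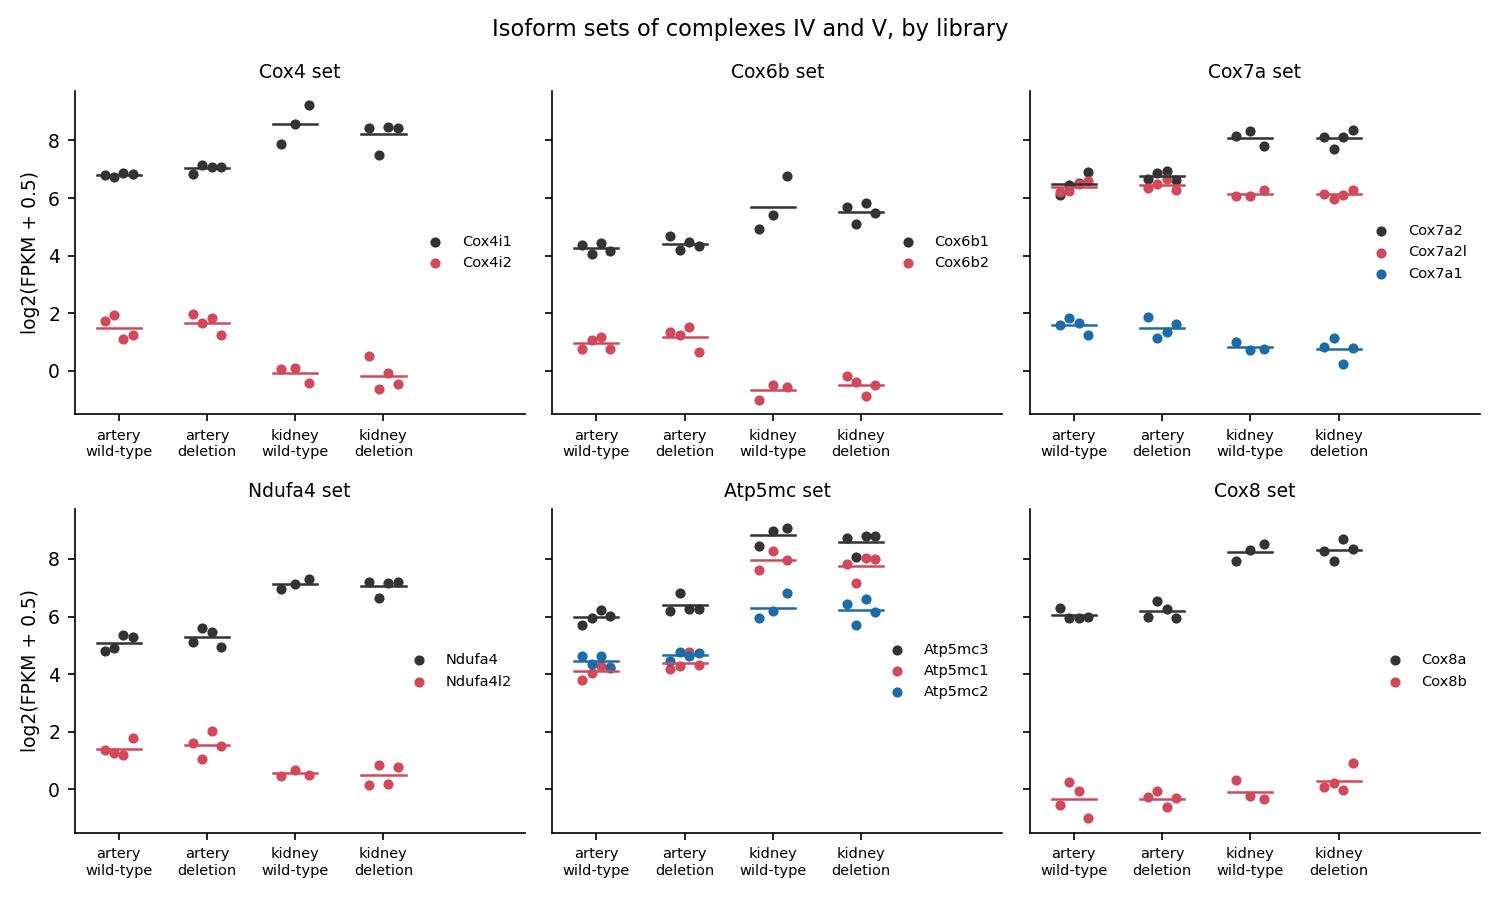
log2(FPKM + 0.5) of each library for the members of 6 isoform sets (Cox4, Cox6b, Cox7a, Ndufa4, Atp5mc and Cox8), in the 2 groups of arteries and the 2 groups of kidneys, with lines at the group means. The ubiquitous forms step up from artery to kidney, and Cox4i2, Cox6b2, Cox7a1 and Ndufa4l2 step down.

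Cox4i1 and Cox4i2 are alternative forms of subunit 4, the regulatory subunit of cytochrome c oxidase. Cox4i1 was at 111, 106, 118 and 113 FPKM in wild-type artery and 235, 382 and 598 FPKM in wild-type kidney, a difference of 1.75 ± 0.27 (adjusted p = 3.55e-05). Cox4i2, known from lung and vascular cells as an oxygen-responsive form (chr3:141228443-141239337 on rn7), was at 2.81, 3.32, 1.67 and 1.86 FPKM in wild-type artery and 0.555, 0.559 and 0.253 FPKM in wild-type kidney. The difference was -1.59 ± 0.28 (adjusted p = 0.000135) in wild-type and -1.83 ± 0.26 (adjusted p = 1.51e-05) in deletion libraries. With a pseudocount of 0.1 these were -2.18 and -2.59, since the kidney levels are near the pseudocount. All 8 arteries lay above all 7 kidneys. As a share of both forms, Cox4i2 made up 2.10% ± 0.65 (SD, n = 8) in arteries but 0.137% ± 0.087 (SD, n = 7) in kidneys.

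Cox6b2, a form of subunit 6b best known from testis (chr1:69094009-69095312), was at 1.2, 1.6, 1.77 and 1.2 FPKM in wild-type artery and 0, 0.218 and 0.178 FPKM in wild-type kidney, a difference of -1.63 ± 0.23 (adjusted p = 1.43e-05). In the deletion libraries the levels were 2.04, 1.84, 2.34 and 1.08 FPKM in artery and 0.377, 0.254, 0.0393 and 0.207 FPKM in kidney, a difference of -1.68 ± 0.21. These values are near the pseudocount, which shrinks them, and with a pseudocount of 0.1 they were -2.88 and -2.67. Its ubiquitous partner Cox6b1 went the other way, at 1.44 ± 0.31, from 20.3, 16.1, 21.1 and 17.3 FPKM to 29.7, 41.9 and 107 FPKM. The share of Cox6b2 was 7.59% ± 1.77 (SD, n = 8) in arteries but 0.384% ± 0.307 (SD, n = 7) in kidneys.

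Subunit 7a has the ubiquitous Cox7a2, the muscle form Cox7a1 and the related Cox7a2l, which joins complexes III and IV in supercomplexes. Cox7a1 (chr1:85422162-85447530) was at 2.51, 3.08, 2.63 and 1.88 FPKM in wild-type artery and 1.48, 1.16 and 1.2 FPKM in wild-type kidney, a difference of -0.75 ± 0.23 (adjusted p = 0.00779). Its groups did not overlap, although deletion artery 2 and deletion kidney 2 both read 1.70 to 3 digits. Cox7a2 was higher in kidney by 1.61 ± 0.20, from 67.9, 87.0, 91.4 and 120 FPKM to 282, 322 and 226 FPKM. Cox7a2l was at 74.0, 74.5, 88.8 and 95.4 FPKM in wild-type artery and 67.1, 66.5 and 76.9 FPKM in wild-type kidney. Its difference of -0.24 ± 0.13 was not called in wild-type (adjusted p = 0.118) and that of -0.32 ± 0.12 was called in deletion libraries (adjusted p = 0.0297). The latter call was lost in 6 alternatives, with adjusted p-values from 0.0535 to 0.310: median-of-ratios scaling (0.310), and leaving out artery deletion 2 (0.0632) or 3 (0.0917), or kidney deletion 1 (0.0535), 2 (0.0682) or 3 (0.0593). In wild-type it was called in 3 alternatives, quantile normalization (-0.77, adjusted p = 5.97e-06), rescaling (-0.62) and array weights (-0.29, adjusted p = 0.0062). Cox7a2l thus made up 45.5% of the 7a forms in artery and 20.4% in kidney, and Cox7a2 53.1% and 79.2%.

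Ndufa4 and Ndufa4l2 form the last such pair. Ndufa4 was at 27.7, 29.4, 40.5 and 38.2 FPKM in wild-type artery and 123, 140 and 158 FPKM in wild-type kidney, a difference of 2.05 ± 0.19. Ndufa4l2, a relative induced by low oxygen and abundant in pericytes (chr7:63351021-63359010), was at 2.09, 1.88, 1.76 and 2.97 FPKM in wild-type artery and 0.893, 1.11 and 0.913 FPKM in wild-type kidney. The difference was -0.85 ± 0.25 (adjusted p = 0.00646) in wild-type, reduced to -0.50 (adjusted p = 0.105) by quantile normalization, and -1.06 ± 0.23 (adjusted p = 0.000724) in deletion libraries. Its share of the pair was 6.15% in artery and 0.717% in kidney. Cox4i2 and Ndufa4l2 are both in the pericyte list, whose summed level was 156 to 222 FPKM in arteries and 25.1 to 53.7 FPKM in kidneys. The pericyte markers Cspg4 (-3.76 ± 0.24) and Abcc9 (-3.16 ± 0.21) were further apart between the tissues than either, and the part of cell makeup was not tested.

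The striated muscle and brown fat forms Cox6a2 and Cox8b were at low levels. Cox6a2 was listed at 0 in 9 of 15 libraries and at most at 0.524 FPKM, and it passed the filter in no fit. Cox8b lay between 0 and 0.685 FPKM in artery and between 0.296 and 1.37 FPKM in kidney, and passed the filter in the kidney fit only. There its deletion difference, 0.38 ± 0.28 (unadjusted p = 0.212, adjusted p = 0.999), was the highest of the 91 members and was not called. The ubiquitous Cox6a1 and Cox8a were called higher in kidney by 2.62 ± 0.31 and 2.21 ± 0.20. Cox7b, for which Cox7b2 was at 0, was higher by 1.54 ± 0.20. Of the 13 striated muscle markers, 3 were tested between the tissues and all 3 were called higher in wild-type artery, and Myh4 was at 0 in all arteries. Of the 12 brown and beige fat markers, 6 were tested, of which 5 were called higher in wild-type artery (Cox7a1 among them) and 1 in kidney, and Elovl3 and Zic1 were at 0 in all arteries. The summed striated muscle list was at 6.67 to 13 FPKM in arteries and 0.244 to 1.07 FPKM in kidneys, and the brown and beige fat list at 58.8 to 98.1 FPKM and 20.4 to 37.4 FPKM, and the part of such cells in the isoform levels was not tested.

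All 18 members of complex V were called higher in wild-type kidney, with a median of 2.11 (4.33-fold). The 5 genes of the catalytic head and central stalk had a median of 2.26, the 4 of the peripheral stalk 1.83 and the 5 of the membrane part beside the c ring 2.11. Atp5f1b, the catalytic subunit, was at 385, 286, 354 and 371 FPKM in wild-type artery and 1380, 1741 and 1895 FPKM in wild-type kidney, a difference of 2.26 ± 0.22.

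The c ring, which turns as protons pass, is made from the single mature protein of 3 genes, whose products differ in the import sequence that is removed. Atp5mc1 (chr10:81024056-81026780) was at 13.4, 16, 19.0 and 18.5 FPKM in wild-type artery and 195, 311 and 250 FPKM in wild-type kidney. This was the largest tissue difference of any member, 3.86 ± 0.22 or 14.5-fold (adjusted p = 4.67e-10), and it was 3.36 ± 0.20 or 10.2-fold in deletion libraries. Atp5mc3 was the most abundant of the 3 in both tissues, at 51.1 to 75.2 FPKM in wild-type artery and 351 to 546 FPKM in wild-type kidney, and differed by 2.87 ± 0.22. Atp5mc2 differed by 1.85 ± 0.22. The share of Atp5mc1 among the c-ring mRNAs was 16.3% ± 2.61 (SD, n = 8) in arteries but 31.7% ± 2.36 (SD, n = 7) in kidneys, without overlap (at most 21.1%, at least 27.5%). Atp5mc2 made up 20.4% in artery and 10.7% in kidney, also without overlap, and Atp5mc3 was at 63.3% and 57.6%, with ranges that overlap.

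Atp5me differed by 3.63 ± 0.47, which depended on single libraries. It was at 4.36, 9.59, 4.51 and 3.26 FPKM in wild-type artery and 28.8, 54.5 and 196 FPKM in wild-type kidney, and the difference was 2.86 without kidney wild-type 3 and 4.24 without kidney wild-type 1. Atp5if1, the inhibitor that stops the synthase from running backwards, behaved alike, at 13.9, 11.4, 11.0 and 15.6 FPKM against 16.6, 37.8 and 165 FPKM. Its difference of 1.84 ± 0.50 (adjusted p = 0.00412) was 0.94 without kidney wild-type 3 and 2.57 without kidney wild-type 1, and called both times. For Atp5mf and Atp5f1e, of the membrane part and the central stalk, leaving out kidney wild-type 1 gave 2.73 and 2.73 in place of 2.11 and 2.12. Without kidney wild-type 3, Atp5mf was at 1.41 and Atp5pf, of the peripheral stalk, at 0.96 in place of 1.56, and both were still called.

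The genes that assemble, feed and regulate the complexes were taken from pathway lists. In wild-type kidney against artery, 16 of 18 assembly factors of complex I were called higher and none lower (median 0.93), and the counts were 3 of 4 for complex II (0.85), 3 of 3 for complex III (0.49), 20 of 25 for complex IV with 1 lower (1.02) and 5 of 5 for complex V (1.33). The medians of all these lists lay below those of the subunits of the same complex. Among electron carriers and ubiquinone synthesis 13 of 20 were called higher, Cycs (cytochrome c) at 3.26 ± 0.20 and Coq9 at 1.76 ± 0.11. Of the citric acid cycle 13 of 14 were called higher and 1 lower, with Suclg2, a subunit of succinyl-CoA ligase, at 2.17 ± 0.14. Of nuclear regulators of mitochondrial genes, 10 of 16 were called higher and 4 lower. Ppargc1a, the coactivator of mitochondrial biogenesis, was at 1.44 ± 0.188 FPKM (SD, n = 4) in wild-type artery and 23.1 ± 0.454 FPKM (SD, n = 3) in wild-type kidney, and Esrra differed by 2.25 ± 0.14. The 4 called lower, named after their values were seen, were Pprc1 (-0.72), Nrf1 (-0.72), Gabpa (-0.48) and Gabpb1 (-0.35). In the deletion libraries 10 of the 16 regulators were called higher and only 2 lower.

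The 13 subunit mRNAs encoded by mitochondrial DNA did not follow the nuclear members. In wild-type, 3 were called higher in kidney (ND3, ND5 and ND6) and 2 lower (ND1 and ND2), with a median of -0.11 (0.926-fold), beside 1.75 for the nuclear members. In the deletion libraries, 5 were called higher and none lower, with a median of 0.51 (1.42-fold). For these mRNAs this comparison is not given without kidney deletion 2. Their summed level was 12989 to 20019 FPKM in the arteries and 17963 to 24247 FPKM in the kidneys other than kidney deletion 2, which had 35369 FPKM and the lowest sum of the nuclear members (8034 FPKM). An FPKM value is relative to all fragments counted, and the rescaled values above leave these RNAs out.

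In the artery no member was called changed by the deletion with limma, as was no gene (0% of 16470, smallest adjusted p of a member 0.893). At an unadjusted p under 0.05, 22 of 92 members were higher in the deletion arteries and 1 lower, where 3.72% and 1.52% of all genes were. The median log2 difference was 0.20 (1.15-fold), against 0.04 over all genes, and 81 of 92 members were on the higher side. In 11 members all 4 deletion arteries lay above all 4 wild-type arteries and in 0 below, with 2.3% of all genes above. By complex the medians were 0.22 in I, 0.29 in II, 0.21 in III, 0.17 in IV and 0.20 in V.

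**Figure D4:**
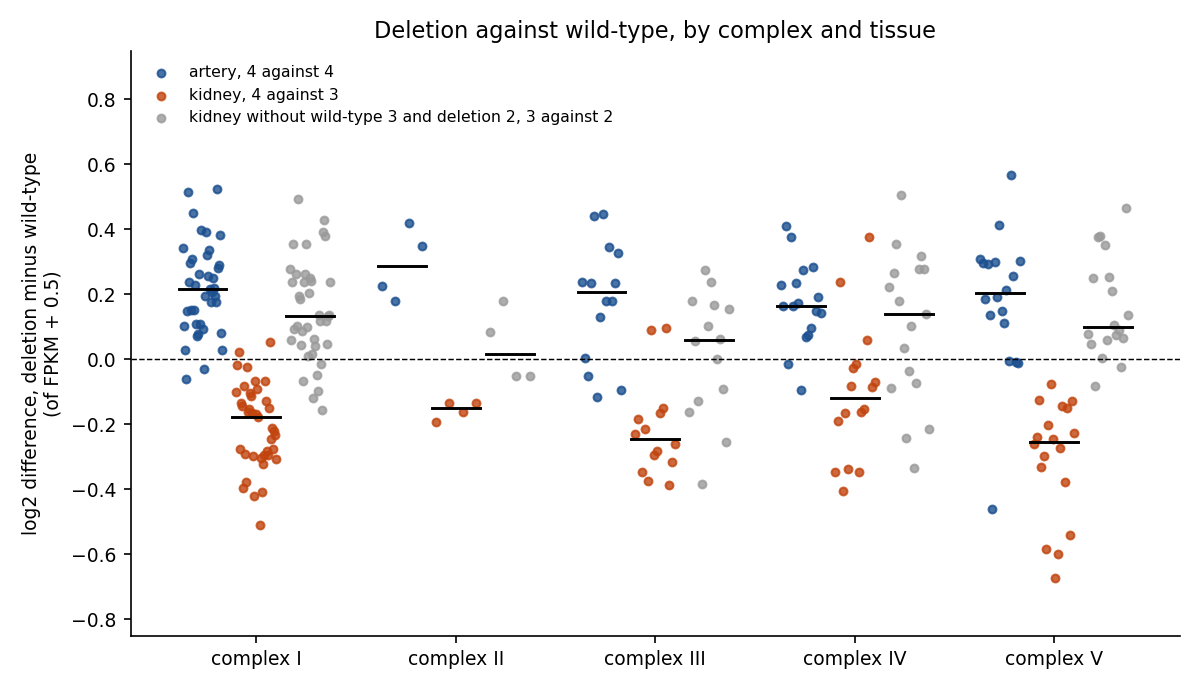
Deletion minus wild-type log2(FPKM + 0.5) difference of each tested member by complex in artery, in kidney and in kidney without wild-type 3 and deletion 2, with bars at the medians. The artery points sit mostly above 0 (median 0.20), the kidney points mostly below (median -0.19), and the kidney points without these libraries mostly above (median 0.11).

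Within each complex the member with the smallest p in artery was higher in the deletion libraries. Ndufv1 was at 30.5, 36.7, 30.4 and 30.2 FPKM in the deletion arteries, above the wild-type range of 22.3 to 27.3 FPKM, a difference of 0.38 ± 0.11 (unadjusted p = 0.00541, adjusted p = 0.893). Sdhc was at 62.2, 74.8, 74.3 and 54.6 FPKM, above its wild-type maximum of 53.3 FPKM (0.42 ± 0.13, unadjusted p = 0.00782). Uqcrc1 was at 42.2, 49.2, 48.7 and 39.6 FPKM, against 31.4 to 37.2 FPKM (0.34 ± 0.11, unadjusted p = 0.00995). Cox5a, a subunit on the matrix side of complex IV, was at 31.7, 40.7, 38.5 and 30.2 FPKM, against 23.1 to 27.8 FPKM (0.41 ± 0.12, unadjusted p = 0.00711). Atp5po, which holds the stalk to the head of the synthase, was at 59.8, 71.6, 68.0 and 60.3 FPKM, against 47.7 to 56.2 FPKM (0.30 ± 0.11, unadjusted p = 0.0186). In each of these 5 genes the groups did not overlap, and deletion arteries 2 and 3 were above the other deletion arteries in all but Ndufv1, where deletion artery 2 alone stood apart. Since the 5 genes were picked by their p in this comparison, the lack of overlap is not a separate result. Ndufs4, an accessory subunit of the matrix arm of complex I, had the tightest groups, with 24.6, 25, 25.7 and 24.2 FPKM against 28.9, 29.0, 28.3 and 28.1 FPKM (0.20 ± 0.07, unadjusted p = 0.0250).

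On the lower side were 11 of the 92 members, and Atp5if1, the inhibitor, was the 1 among them with an unadjusted p under 0.05, a share near that of all genes. It was at 13.9, 11.4, 11.0 and 15.6 FPKM in wild-type artery and 8.56, 6.71, 13.3 and 9.37 FPKM in the deletion arteries, with groups that overlap (-0.46 ± 0.19, unadjusted p = 0.0397, adjusted p = 0.893). No member was lower at an unadjusted p under 0.05 when wild-type 1 or 4 or deletion 1, 2 or 4 was left out, in a single fit over both tissues or with the adipocyte level as a covariate.

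Deletion arteries 2 and 3 were the highest of the 8 for 38 and 34 of the 92 members, and wild-type arteries 1 and 2 the lowest for 30 and 25. In the adipocyte list, 20 of 20 markers were on the higher side in the deletion arteries with 0 called (median 0.23). The list's summed level was 4263 to 6142 FPKM in wild-type and 4578 to 8435 FPKM in deletion arteries. It was highest in deletion 2 (8435 FPKM) and deletion 3 (6947 FPKM), but wild-type 1 had 6142 FPKM and deletion 4 had 4578 FPKM. With the adipocyte level as a covariate the members' median was 0.15, 65 of 92 were on the higher side and 2 of these had an unadjusted p under 0.05. The part of fat in the members' difference was not tested. Of the citric acid cycle, 14 of 14 genes were on the higher side with 0 called and 1 at an unadjusted p under 0.05 (median 0.15), and of the 13 mitochondrial mRNAs 5 were, with 0 called and 0 at an unadjusted p under 0.05 (median -0.15). The count of 22 higher members was 10 without wild-type 1, 11 without deletion 2, 13 with median-of-ratios scaling and 7 in a single fit over both tissues. For such alternatives the share of all genes at an unadjusted p under 0.05 is not given. Nor is the share of all genes on the higher or lower side given for any fit.

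In the kidney no member and no gene was called changed with limma (0% of 15444). With array weights, which give less weight to libraries that vary more, 188 genes were called higher and 94 lower, of which 0 and 3 were members. At an unadjusted p under 0.05, 0 members were higher and 1 lower, beside 0.939% and 0.466% of all genes. The median was -0.19, against 0.04 over all genes, and 84 of 91 members were on the lower side. In 3 members (Uqcc1, Uqcc5 and Cox7a2l2) all deletion kidneys lay below all wild-type kidneys, with 1.01% of all genes. The medians were -0.18, -0.15, -0.25, -0.12 and -0.25 for complexes I to V.

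**Figure D5:**
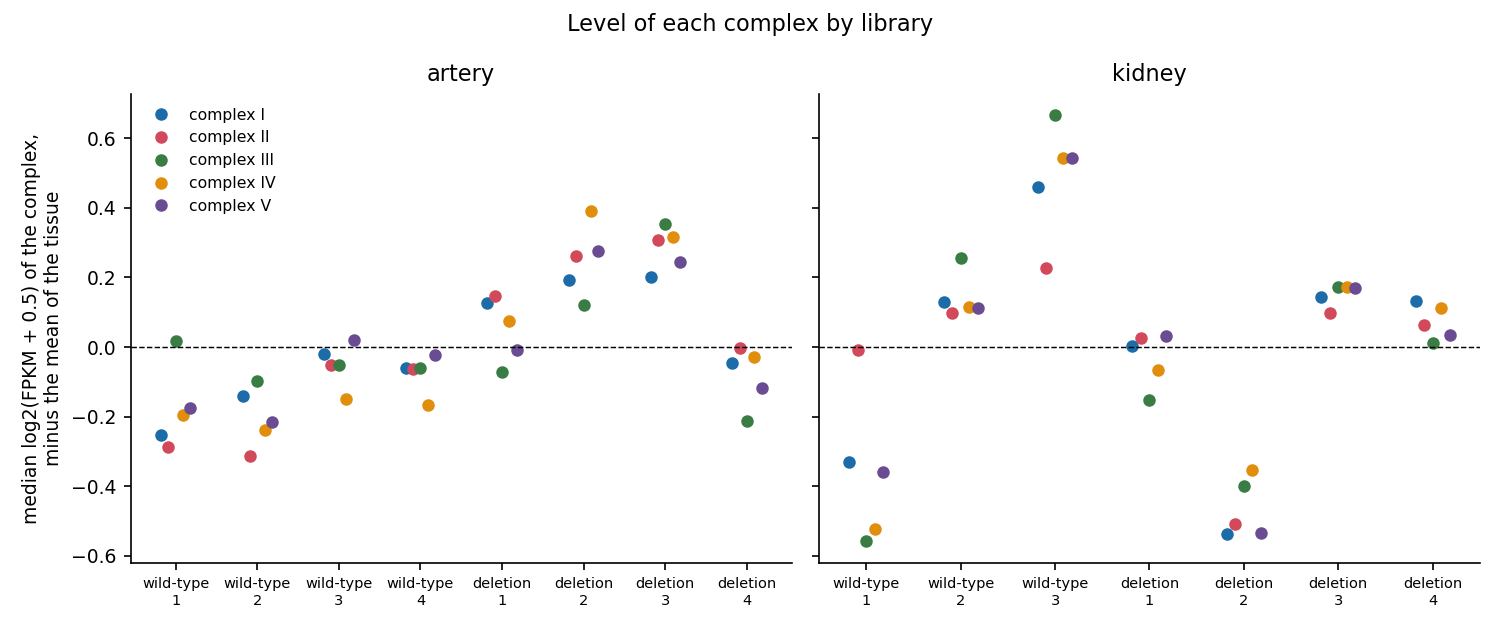
Median log2(FPKM + 0.5) of the tested members of each complex in each library, minus the mean of its tissue, for the 4 groups. In kidney, wild-type 3 is at the top in all 5 complexes, deletion 2 at the bottom in complexes I, II and V and wild-type 1 at the bottom in complexes III and IV, while the artery libraries lie closer together.

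The direction in kidney rested on few libraries. Kidney wild-type 3 was the highest of 7 for 63 of 91 members and kidney deletion 2 the lowest for 59. The median was -0.01 without the former, -0.08 without the latter and -0.40, with 21 members lower at an unadjusted p under 0.05, without kidney wild-type 1. With both kidney wild-type 3 and kidney deletion 2 left out, which leaves 2 against 3 libraries, the median was 0.11, against -0.02 over all genes. Of the members 71 of 92 were on the higher side, 6 had an unadjusted p under 0.05 and 0 were called. The libraries left out had the highest and the lowest summed level of the members in kidney, so leaving both out raises the difference. Of those kept, kidney wild-type 1 (10231 FPKM) lay below the deletion kidneys (11791 to 12782 FPKM). Kidney wild-type 2 (13505 FPKM) lay above them. The share of all genes at an unadjusted p under 0.05 is not given for these fits. In kidney wild-type 3, 17 members (18.7%) exceeded the mean of the other kidneys by more than 2-fold, against 1.72% of all genes. Atp5if1 was 5.49 times, Atp5me 4.58 times, Atp5mf 3.97 times and Atp5pd 2.98 times the mean of the other 6.

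With all kidney libraries the mitochondrial mRNAs stood on the other side, with 10 of 13 higher in the deletion kidneys, 0 called and 1 at an unadjusted p under 0.05 (median 0.35). Without kidney wild-type 3 and kidney deletion 2 the nuclear members too were mostly higher (71 of 92, median 0.11). Leaving out these libraries raises the members' difference, as stated above. The differences of the mitochondrial mRNAs are not given without these libraries. Their summed level was 17963 to 18547 FPKM in wild-type kidneys, and 19894 to 24247 FPKM in deletion kidneys other than deletion 2. The median standard deviation of log2 values within kidney groups was 0.36 for members and 0.25 for all genes, and 0.21 and 0.18 without the same libraries. In artery it was 0.22 and 0.23. Deletion differences well under this spread could not be resolved in kidney.

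Of single members in kidney, Uqcc5, a complex III assembly factor, was at 9.64, 9.67 and 8.42 FPKM in wild-type and 7.25, 6.21, 7.98 and 6.68 FPKM in deletion libraries (-0.38 ± 0.13, unadjusted p = 0.0178, adjusted p = 0.999). The groups did not overlap, which is not a separate result for a gene picked by its p in this comparison. The library labelled kidney wild-type 3 was the lowest of the wild-type ones here. Cox7a2l2, a low copy or relative of a Cox7a member whose reads may be shared with it, was at 5.10, 7.97 and 5.39 FPKM against 5.03, 3.79, 4.82 and 5.05 FPKM (-0.35, unadjusted p = 0.0915). Despite its name, its wild-type tissue difference (1.64) was near that of Cox7a2 (1.61) and unlike that of Cox7a2l (-0.24). Ndufs4 was at 56.1, 62.7 and 67.7 FPKM against 52.1, 42.9, 48.5 and 59.5 FPKM, with groups that overlap (-0.30 ± 0.15, unadjusted p = 0.0845). Sdha (-0.19 ± 0.22) and Atp5f1d of the central stalk (-0.33 ± 0.22, unadjusted p = 0.166) had the smallest p in complexes II and V, and deletion 2 was the lowest library for both.

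Whether the deletion effect differed between the tissues was tested as the interaction over all 15 libraries. No member and no gene was called (0% of 16856, smallest adjusted p of a member 0.943). At an unadjusted p under 0.05, 17 of 92 members were lower in kidney than in artery and 0 higher, where 2.56% of all genes were lower. The members' median was -0.43 (0.003 over all genes), and 89 of 92 members were negative. It was -0.24 with 7 members at an unadjusted p under 0.05 and lower when kidney wild-type 3 was left out, and -0.60 with 44 without kidney wild-type 1. The count was 4 without kidney wild-type 2, 5 without artery deletion 2, 8 without kidney deletion 2, artery wild-type 1 or artery wild-type 2, 11 without artery deletion 3, 7 with median-of-ratios scaling and 34 with array weights. These counts too stand without the share of all genes in the same fit. The smallest p-values belonged to Uqcc1 (-0.47 ± 0.12, unadjusted p = 0.00148) and Ndufs4 (-0.49 ± 0.15, unadjusted p = 0.00489). Uqcc1 was at 9.78 to 10.7 FPKM in wild-type and 10.8 to 12.7 FPKM in deletion arteries, and at 17.0 to 19.1 FPKM in wild-type and 14.4 to 16 FPKM in deletion kidneys, so that its groups did not overlap in either tissue. Since Uqcc1 was picked by its p in the interaction, this lack of overlap is not a separate result. The tissue isoforms Cox4i2 (-0.25 ± 0.39), Cox6b2 (-0.05 ± 0.32), Cox7a1 (0.01 ± 0.31) and Ndufa4l2 (-0.21 ± 0.33) had interaction values smaller than their standard errors.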

How the data were processed

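RNA-seq of total RNA was deposited by the authors as a table of FPKM values with 1 column per library, 40694 rows in all, of which 6337 without a gene identifier were 0 throughout and left out. The submitters' processing notes list HISAT2 2.2.1, Trim Galore 0.6.2 and DESeq2 1.46.0, and rn7 as build, without saying what each was used for. The tool that made the FPKM values and its treatment of reads shared between copies are not given in the sources used here. Another column of values (1 in all), matched to no sample, was not used. Depth is unknown, so no counting error is given.

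FPKM values were analysed as log2(FPKM + 0.5) with limma 3.58.1 in R 4.3.3 (trend and robust moderation, two-sided, Benjamini-Hochberg over all genes tested), after a filter at a mean of 0.5 FPKM. Deletion and wild-type were compared within each tissue, and tissues and the interaction in a single fit of 4 groups. The method was run on simulated data with independent noise in each gene. That run cannot show how the method behaves where a library shifts many genes together. Promoters came from RefSeq (GRCr8). Members, lists and alternatives were chosen with earlier results of these data known. Genes named were all members of the isoform sets, the leading member of each complex and tissue, the smallest p in each complex and deletion comparison, the 2 largest and 2 smallest wild-type tissue differences of each complex, and at most 2 per pathway list; others were named after their values were seen. Alternatives were other pseudocounts, filters and scalings, array weights, a replicate block, covariates and leaving out libraries.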

Additional observations from a re-analysis of the deposited data

Results flagged for a closer look

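In groups of 4 libraries, 153 sets of values were checked for a library whose gap to the nearest of the others exceeded Dixon's 95% critical value, and 13 did. Chance gives about 1 in 20.

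Of these, 8 concern kidney deletion 2, low each time. The median log2(FPKM + 0.5) of the members was 5.79 there and 6.29 to 6.38 in the other deletion kidneys, and that of complex II was 6.90 against 7.44 to 7.51. Atp5mc3 was at 266 FPKM (others 421 to 445), Atp5mg at 64.6 FPKM (103 to 109) and Cox4i1 at 181 FPKM (344 to 356). Ndufa4 was at 99.1 FPKM (145 to 146), Ndufv1 at 58.8 FPKM (91.3 to 97.5) and Sdhc at 159 FPKM (258 to 277). The values share a library and are not separate observations.

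In artery deletion 2, Atp5f1d was at 58.5 FPKM (others 40.2 to 42.3), Atp5mc3 at 112 FPKM (72.6 to 77.2) and Ndufv1 at 36.7 FPKM (30.2 to 30.5). This library had the highest adipocyte marker level. Its T, NK and B cell markers summed to 105 FPKM, against 7.54 to 23.9 FPKM in the other deletion arteries and 11.4 to 154 FPKM in wild-type arteries. The part of such cells was not tested. Cox8a was high in artery wild-type 1, at 78.4 FPKM (60.8 to 62.9). Cox6a2 was at 0.0799 FPKM in artery wild-type 3 and listed at 0 in the other wild-type arteries. With the others at 0 any value above 0 is flagged, and this gene passed the filter in no fit.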

How the results depend on the processing

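Of 1388 values under the alternatives, each for a gene in the comparison it was named for, 1365 kept their direction and side of the threshold, 17 lost a call, 5 gained one and 1 reversed (Sdha in kidney, 0.084 without kidney wild-type 3 and kidney deletion 2, never called). The members' tissue median, 1.75 in wild-type and 1.39 in deletion libraries, moved to 1.35 and 1.09 with quantile normalization and to 1.36 and 1.1 with rescaling. Leaving out 1 library gave 1.53 to 1.95 and 1.30 to 1.49. With array weights, which called 188 genes higher and 94 lower in kidney, 3 members were called lower: Cox7a2l2 (-0.63, adjusted p = 0.0448), Uqcc5 (-0.41, adjusted p = 0.0448) and Ndufb7 (-0.64, adjusted p = 0.0491). Leave-one-out medians were 0.15 to 0.24 for the deletion in artery, -0.40 to -0.01 in kidney and -0.60 to -0.24 for the interaction, with 0 called each time. The cause of these changes was not tested.

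The replicate numbers were not taken as pairs, since same-numbered wild-type and deletion libraries correlated by -0.33 to 0.32 in artery and -0.01 to 0.28 in kidney. Same-numbered artery and kidney libraries correlated by -0.07 to 0.14 in wild-type and -0.08 to 0.23 in deletion. With a replicate block the medians were 0.20 in artery, with 20 members higher at an unadjusted p under 0.05, -0.25 in kidney and 1.77 between tissues in wild-type, with 85 called higher. Depth is unknown, so what it limits at low levels, such as those of Cox6b2, could not be judged.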
